A study of Homo sapiens with 6 samples.

Results

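Long non-coding snoRNA host genes and cytoplasmic ribosomal protein genes were followed in LN229 cells, an established human glioblastoma line, with and without overexpression of HSD52, a long non-coding RNA. Members were chosen by name: 28 rows of the count table with 27 names (the numbered SNHG genes, GAS5, ZFAS1 and EPB41L4A-AS1) formed the host set, and 84 protein-coding genes (the RPL and RPS genes with RPLP0, RPLP1, RPLP2 and RPSA) formed the ribosomal protein set. Together they are 112 of 58735 genes, and the 2 sets were described apart. The 3 control libraries, whose genotype is labelled WT, were compared with 3 libraries whose genotype is HSD52 overexpression, called HSD52_OE. LN229 is the cell line in every label, and no vector, clone or passage is named for either group, nor an empty vector for the controls. Whether replicates came from separate cultures is not stated either, so p-values reflect only how far these 6 libraries spread, in part perhaps technically.

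A small nucleolar RNA (snoRNA) is usually cut out of an intron of a longer host transcript, and then guides a chemical mark onto ribosomal RNA: C/D box snoRNAs direct ribose methylation and H/ACA box snoRNAs direct pseudouridylation. Some hosts encode a protein, often a ribosomal protein or a translation factor, while the hosts studied here are mostly spliced RNAs with little coding potential, several of which are degraded by nonsense-mediated decay. Many ribosomal protein mRNAs, and some host transcripts, begin with a terminal oligopyrimidine (TOP) tract, a C followed by a run of C and T, through which mTORC1 and LARP1 control their translation and stability.

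HSD52 itself checked the labels. Control replicates 1 to 3 held 11, 7 and 12 counts of it, and the HSD52_OE libraries, in the same order, held 1252, 1336 and 1327, and the log2 fold change was 6.89 ± 0.15 (SE; edgeR adjusted p = 8.95e-14). Library totals lay between 17777157 and 18917790 counts, so 1 CPM, the count scaled to library size, was about 18 counts. CPM values carry a TMM factor (trimmed mean of M values), groups are given as mean ± SD over 3 libraries, and a log2 fold change compares HSD52_OE to control and is followed by its SE. A gene was called when its adjusted p, over all 16322 genes tested, was under 0.05. Among all genes tested, 25.0% were called higher and 25.6% lower in HSD52_OE, so calls were common. Control libraries differed more from each other (chi-square over its degrees of freedom 15.1 to 18.6 for the counts of a pair) than HSD52_OE libraries did (2.23 to 3.51). Of the 8 glioma markers, VIM was at 1369 ± 34.9 CPM in control cells and GFAP at 4.83 ± 1.46 CPM. In HSD52_OE, 2 of the 8 were called higher (SOX2 and GFAP) and 3 lower (EGFR, S100B and CD44), or 25.0% and 37.5%. EGFR fell from 52.4 ± 6.04 to 25.4 ± 3.17 CPM. Of 16 markers of other cell types, 3 (CDH1, KRT5 and CD3E) had no count in any library. The summed level of those 16 was 114 to 177 CPM in control and 55.8 to 56.8 CPM in HSD52_OE libraries, mostly COL1A1, LUM, SYT1 and SNAP25, and its part in the results was not tested. Of the 9 tested, 5 were called lower and 1 higher (55.6% and 11.1%). COL1A1 fell from 72.4 ± 35.7 to 5.44 ± 0.170 CPM. HBB rose, with 0 counts in each control and 29, 33 and 27 in HSD52_OE libraries. In bulk RNA, fewer cells of a type and less RNA per cell cannot be told apart.

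The annotated start of a member shows whether its transcript opens with a TOP tract, so starts of members that rose, fell or head the sets are printed here. Each window runs from 20 bases before to 25 bases from the RefSeq start (GRCh38.p14), on the gene's strand. Capitals mark the tract: a C at the start with at least 4 further C or T. The windows lie at chr5:139274081-139274125 (SNHG4, plus), chr20:49278622-49278666 (ZFAS1, plus), chr16:2155334-2155378 (SNHG19, minus), chr1:28581849-28581893 (SNHG12, minus), chr5:9546180-9546224 (SNHG18, plus), chr17:76557744-76557788 (SNHG16, plus), chrX:101390991-101391035 (RPL36A, plus), chrX:119791606-119791650 (RPL39, minus), chr19:55385912-55385956 (RPL28, plus), chr19:1438376-1438420 (RPS15, plus) and chr11:75399498-75399542 (RPS3, plus).
SNHG4: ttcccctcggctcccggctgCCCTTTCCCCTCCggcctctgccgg
ZFAS1: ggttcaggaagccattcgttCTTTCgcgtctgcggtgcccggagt
SNHG19: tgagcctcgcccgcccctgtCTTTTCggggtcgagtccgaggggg
SNHG12: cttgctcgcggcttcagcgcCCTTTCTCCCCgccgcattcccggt
SNHG18: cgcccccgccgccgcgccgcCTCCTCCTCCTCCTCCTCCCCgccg
SNHG16: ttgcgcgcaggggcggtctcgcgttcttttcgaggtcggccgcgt
RPL36A: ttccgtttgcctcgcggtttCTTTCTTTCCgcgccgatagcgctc
RPL39: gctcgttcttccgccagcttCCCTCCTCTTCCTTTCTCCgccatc
RPL28: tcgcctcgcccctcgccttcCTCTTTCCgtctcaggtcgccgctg
RPS15: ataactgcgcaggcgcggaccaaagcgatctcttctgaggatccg
RPS3: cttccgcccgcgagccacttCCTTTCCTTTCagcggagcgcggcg

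A tract at the annotated start was present in 6 of the 23 host names with a RefSeq start (26.1%) and in 47 of 67 ribosomal protein genes (70.1%). It was present in 5.14% of the 27305 genes with a start in the same table, in 7.46% of tested protein-coding genes and in 3.60% of tested long non-coding RNAs. A tract was found at the start of host genes that rose (SNHG4, ZFAS1, SNHG19, SNHG12), of one that fell (SNHG18) and of one that was not called (SNHG5), and it was likewise on both sides among the ribosomal protein genes. A start without it says only that these letters are not at the annotated position. SNHG16, for example, has a pyrimidine run a few bases further in.

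The snoRNAs themselves were printed for hosts that rose, to show what such a gene carries. Capitals mark the box motifs of the C/D class: TGATGA (box C) followed later on the same strand by CTGA (box D), searched on the snoRNA's own strand. SNORD12B and SNORD12C lie inside ZFAS1 at chr20:49280319-49280409 and chr20:49278940-49279028 (plus strand), and SNORD27 and SNORD25 lie inside SNHG1 at chr11:62855012-62855083 and chr11:62855564-62855632 (minus strand), in hg38 coordinates with the sequences as annotated in GENCODE release 29.
SNORD12B: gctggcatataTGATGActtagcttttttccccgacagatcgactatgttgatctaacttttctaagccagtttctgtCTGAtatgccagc
SNORD12C: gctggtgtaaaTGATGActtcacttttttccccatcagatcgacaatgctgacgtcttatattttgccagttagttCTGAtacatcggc
SNORD27: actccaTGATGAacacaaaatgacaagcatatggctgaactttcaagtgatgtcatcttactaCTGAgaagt
SNORD25: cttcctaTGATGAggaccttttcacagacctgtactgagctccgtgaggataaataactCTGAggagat

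The pair of motifs in this order was found in 212 of the 278 snoRNAs of the table named SNORD (76.3%) and in 1 of the 147 named SNORA (0.680%). The host set held 136 snoRNA rows on its own strand, 84 of them in SNHG14, the host of the SNORD115 and SNORD116 clusters next to SNRPN. The other hosts held 1 to 7 each, except GAS5 and SNHG27, for which none was analysed here. Of the 84 ribosomal protein genes, 28 held at least 1 snoRNA row, 60 in all.

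Host genes rose more often than they fell. Of 28 host rows, 22 passed the low-count filter, and 12 were higher, 2 were lower and 8 were not called in HSD52_OE. Long non-coding RNAs as a class did much the same: 43.3% of the 2081 tested were higher and 4.61% lower, against 54.5% and 9.09% of the host genes. The median log2 fold change of the host genes was 0.33, below the 0.59 of all tested long non-coding RNAs and close to the 0.35 of the 352 with a mean of at least 5 CPM, of which 48.9% were higher and 9.38% lower. It was 0.01 over all genes tested. The split of calls in the host set was thus near that of long non-coding RNAs of like abundance.

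**Figure D1:**
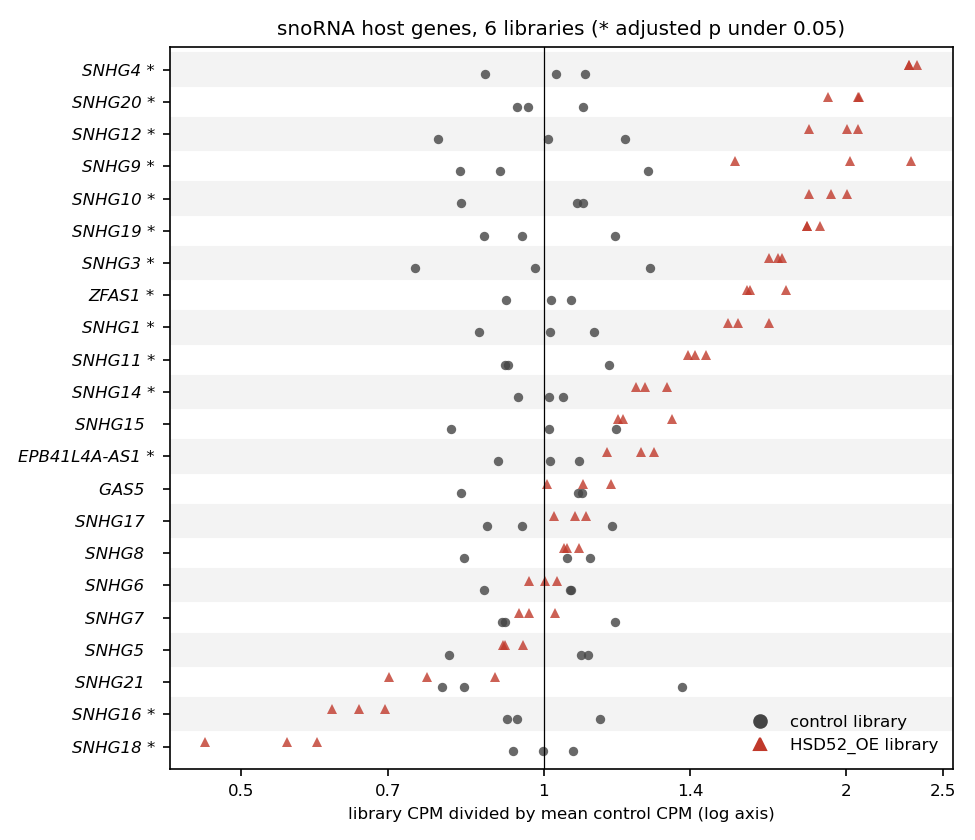
Each of the 22 tested host genes is a line; points give the CPM of each library divided by the mean control CPM of that gene, on a log2-spaced axis, for 3 control (circles) and 3 HSD52_OE (triangles) libraries. The HSD52_OE libraries lie right of all control libraries for 13 genes and left of them for SNHG16 and SNHG18 (59.1% and 9.09%), against 54.3% and 10.8% of long non-coding RNAs of at least 5 CPM and 29.6% and 29.3% of all genes tested.

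The largest rise among the hosts was in SNHG4, the host of SNORA74A. Its 3 control libraries were at 33.1, 39.0 and 41.6 CPM and its 3 HSD52_OE libraries at 87.6, 87.7 and 89.3 CPM. The groups were far apart, and the log2 fold change was 1.22 ± 0.09 (adjusted p = 1.21e-07). Of its exon bases, 16.6% lie in exons of MATR3 or SIL1, and without strand reads there cannot be told apart. ZFAS1, the antisense neighbour of ZNFX1 and host of the SNORD12 family, was at 32.2, 37.4 and 35.7 CPM in control and at 56.0, 61.1 and 56.4 CPM in HSD52_OE libraries. All 3 HSD52_OE libraries were above all 3 controls, with a log2 fold change of 0.72 ± 0.09 (adjusted p = 1.21e-05), while the median over its 19 tested neighbours within 1 Mb was -0.41. Exons of other genes cover 42.9% of the ZFAS1 exon bases.

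SNHG19, SNHG1 and SNHG11 rose and share no exon base with another gene, snoRNA rows aside. The overlap search left out snoRNA rows, and the part of those rows in these values was not tested. SNHG19, the host of SNORD60, was at 18.9, 23.4 and 17.3 CPM in control and at 36.3, 37.5 and 36.3 CPM in HSD52_OE libraries, a log2 fold change of 0.88 ± 0.11 (adjusted p = 1.3e-05). SNHG1, the host of SNORD25, SNORD27 and other C/D snoRNAs, was at 46.6, 60.6 and 54.7 CPM in control and at 82.4, 90.5 and 84.2 CPM in HSD52_OE libraries (0.67 ± 0.10, adjusted p = 5.01e-05). In both genes the lowest HSD52_OE library was well above the highest control. SNHG11, the host of SNORA60 and SNORA71E, rose from 19.6 ± 2.77 to 27.9 ± 0.577 CPM (0.50 ± 0.11, adjusted p = 0.00146).

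SNHG3, the host of SNORA73A and SNORA73B just upstream of RCC1, showed the widest control spread, relative to its mean, of the 12 hosts that rose: 51.8, 88.7 and 68.1 CPM, against 119, 120 and 116 CPM in HSD52_OE libraries. The groups still did not overlap, and the log2 fold change was 0.77 ± 0.15 (adjusted p = 0.00102). SNHG12, on the opposite strand to TRNAU1AP and host of SNORA16A, SNORA44, SNORA61 and SNORD99, rose from 12.0 ± 2.53 to 23.7 ± 1.37 CPM (log2 fold change 0.97 ± 0.14). Hosts of scaRNAs, the guides that act in Cajal bodies on spliceosomal RNA, rose by a like factor: SNHG20, the host of SCARNA16, from 7.13 ± 0.582 to 14.3 ± 0.579 CPM and SNHG10, the host of SCARNA13, from 8.54 ± 1.28 to 16.4 ± 0.712 CPM. SNHG21, the host of SCARNA15, had 3.85 ± 1.25 CPM in control against 3.03 ± 0.377 CPM in HSD52_OE libraries and was not called (adjusted p = 0.232).

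SNHG9, the host of SNORA78, rose from 1.84 ± 0.435 to 3.61 ± 0.712 CPM, on 26 to 82 counts per library. SNHG14 rose from 31.2 ± 1.65 to 39.7 ± 1.47 CPM (0.35 ± 0.09, adjusted p = 0.00477). EPB41L4A-AS1, the host of SNORA13, was at 16.5, 19.9 and 18.6 CPM in control and at 23.6, 22.9 and 21.2 CPM in HSD52_OE libraries (0.30 ± 0.11, adjusted p = 0.0312). Its call was the weakest of the 12, it was lost in 6 of the 15 alternative fits (adjusted p 0.00552 to 0.323 over all of them), and 49.6% of its exon bases lie opposite EPB41L4A. SNHG15 fell just on the other side of the threshold (0.31 ± 0.13, adjusted p = 0.0525), with all HSD52_OE libraries above all controls. It was called higher in 6 of the 15 alternative fits, among them the one without control replicate 2 (adjusted p 0.00969 to 0.311 over all of them).

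The 2 hosts that fell were SNHG18 and SNHG16. SNHG18, the host of SNORD123, was at 17.9, 19.2 and 20.5 CPM in control and at 10.7, 8.84 and 11.4 CPM in HSD52_OE libraries, with a log2 fold change of -0.90 ± 0.13 (adjusted p = 3.18e-05). SNHG16, the host of the SNORD1 family, was at 157, 160 and 194 CPM in control and at 118, 105 and 112 CPM in HSD52_OE libraries (-0.61 ± 0.09, adjusted p = 8.54e-05). Neither gene's groups overlapped. Exons of another gene, snoRNA rows aside, cover 30.6% of the SNHG16 exon bases and none of those of SNHG18. The tested neighbours within 1 Mb had medians of -0.27 around SNHG18 and -0.36 around SNHG16.

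The best-known host of the set, GAS5, was not called. Its control libraries were at 81.1, 107 and 106 CPM and its HSD52_OE libraries at 107, 114 and 98.8 CPM, so the groups overlapped (0.12 ± 0.10, adjusted p = 0.341). Per kilobase of exon, the highest hosts were SNHG5, SNHG19 and SNHG6, with mean levels of 92.2, 82.7 and 71.4 FPKM. Of these only SNHG19 was called. SNHG5, the host of SNORD50B, was at 216, 297 and 293 CPM in control and at 246, 245 and 256 CPM in HSD52_OE libraries, where control replicate 1 alone was below the HSD52_OE libraries. Without that library it was called lower (11 hosts were then higher and 3 lower). The 3 tested hosts with log2 fold changes nearest to 0 were SNHG6 (0.0005 ± 0.09), SNHG7 (-0.03 ± 0.10) and SNHG8 (0.09 ± 0.11). The host rows that were too low to test (SNHG22, SNHG25, SNHG26, SNHG27 and both rows of SNHG28) had at most 22 counts in any library.

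With snoRNA rows set aside, 9 tested hosts share no exon base with another gene, and 4 of them were higher and 1 was lower. Of the 13 that share some, 8 were higher and 1 was lower (44.4% against 61.5% higher). The difference between these shares was not tested. Introns were hard to separate from exons. The merged exons of the annotation cover 95.6% of the SNHG1 span and 92.8% of that of SNHG12, so a count on such a gene holds spliced and unspliced RNA alike.

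snoRNAs lack a poly(A) tail and were not the target of this poly-T selection, but some rows inside the hosts held a few counts. Many rows had no count in any library, among them SNORD25 and SNORD27 of SNHG1. The rows inside the hosts summed to 65, 145 and 86 counts in control libraries and to 251, 271 and 276 in HSD52_OE libraries. Rows inside ribosomal protein genes summed to 59, 102 and 97 against 187, 212 and 194. The snoRNA rows outside the members summed to 184, 322 and 281 against 611, 678 and 591 counts, so they too were higher in every HSD52_OE library than in any control. Some other measures of RNA content moved the same way: the long non-coding RNA share of counts was 0.795 to 0.895% in control and 1.29 to 1.36% in HSD52_OE libraries, and 22855 to 23545 against 26359 to 26755 genes had a count. The mitochondrial share overlapped between groups, at 3.38, 2.64 and 2.94% in control and 3.49, 3.53 and 3.33% in HSD52_OE libraries. Of 7 tested RNAs on a list of long non-coding RNAs, several of them nuclear-retained, 5 rose and 1 fell (71.4% and 14.3%, median log2 fold change 0.58). Of all tested long non-coding RNAs, 43.3% were higher and 4.61% lower. MALAT1, among the 5, rose from 62.9 ± 13.2 to 340 ± 76.7 CPM. The part of these shifts in the rise of the host genes was not tested.

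Ribosomal protein genes moved little and in both directions. Of 84 genes, 81 passed the low-count filter, and 11 were higher, 15 were lower and 55 were not called. Protein-coding genes as a class were called more often, 21.4% higher and 30.1% lower, against 13.6% and 18.5% of the ribosomal protein genes. The median log2 fold change was -0.05, beside -0.06 for all tested protein-coding genes and -0.16 for the 2312 with a mean of at least 100 CPM, of which 13.7% were higher and 41.3% lower. The 55 genes that were not called lay between -0.25 and 0.29. The large subunit had 6 higher and 10 lower of 49 tested, and the small subunit 5 higher and 5 lower of 32.

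**Figure D2:**
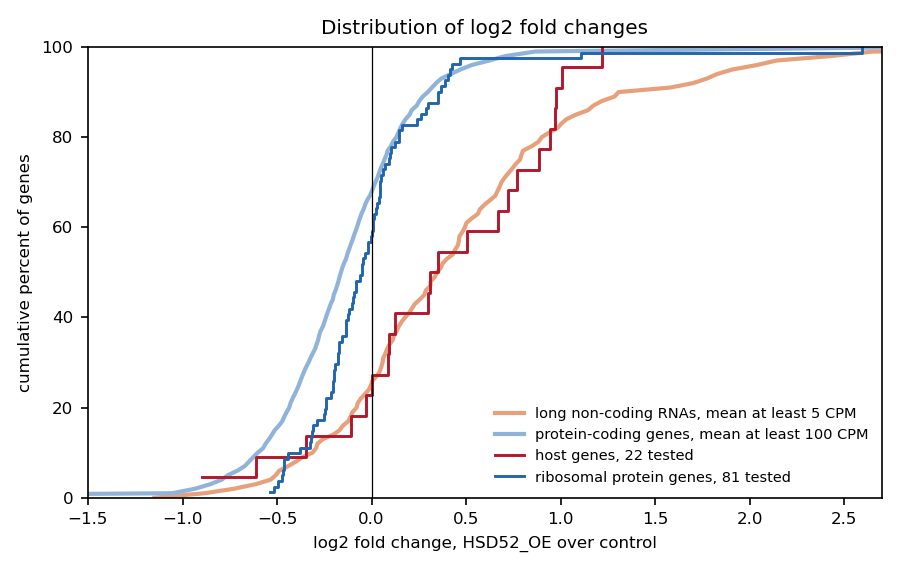
Cumulative percent of genes (vertical axis) against log2 fold change of HSD52_OE over control (horizontal axis). The 22 host genes (dark red steps) mostly follow long non-coding RNAs of at least 5 CPM (orange), with medians of 0.33 and 0.35. Their largest value, 1.22, is at percentile 88 of those RNAs. The 81 ribosomal protein genes (dark blue steps) lie mostly right of protein-coding genes of at least 100 CPM (light blue), with medians of -0.05 and -0.16. Only RPL36A and RPS10 lie above 0.47, percentile 95 of those protein-coding genes, so the curves cross on the right.

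Before TMM scaling, the ribosomal protein set as a whole took up like parts of the libraries of both groups. It made up 5.43, 6.56 and 7.02% of control counts and 6.19, 6.35 and 6.32% of HSD52_OE counts, means of 6.34 ± 0.821% and 6.29 ± 0.0851%. The HSD52_OE libraries lay inside the control range, and the difference of -0.048 percentage points became -0.503 without control replicate 1. The host set made up 0.0926, 0.118 and 0.118% in control and 0.136, 0.135 and 0.134% in HSD52_OE libraries, means of 0.110 ± 0.0148% and 0.135 ± 0.00134%, with no overlap. For single values of 3 against 3 libraries, the smallest 2-sided exact permutation p is 0.1, and no test was made on these sums.

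**Figure D3:**
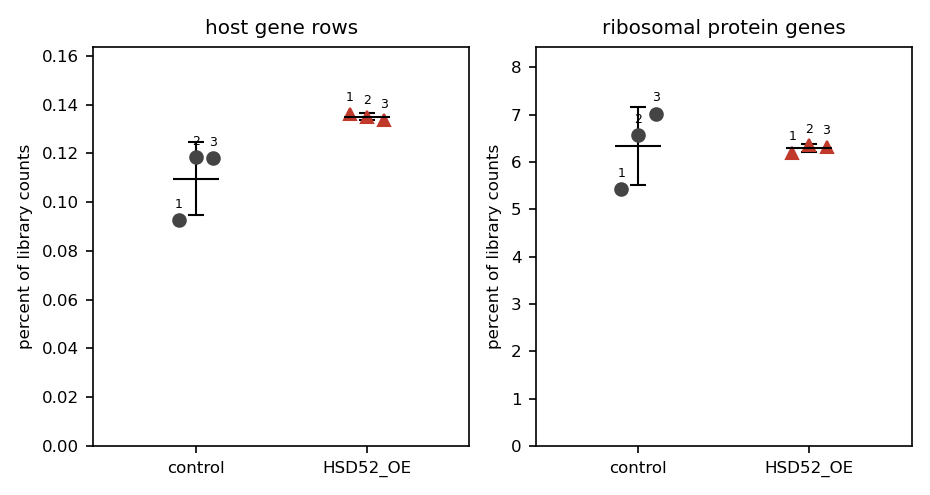
Percent of all counts of a library that fell on the 28 host rows (left) and the 84 ribosomal protein genes (right); points are libraries, numbered by replicate, and bars give mean and SD (n = 3). Both axes start at 0; control replicate 1 is the lowest library in both panels, and HSD52_OE libraries lie within 6.19 to 6.35% for the ribosomal proteins.

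Control replicate 1 was the lowest control for most members. Within the control group it had the lowest CPM for 79 of the 81 tested ribosomal protein genes (97.5%), against 24.4% of protein-coding genes of at least 100 CPM. For hosts this was so in 17 of 22 (77.3%), against 50.3% of long non-coding RNAs of at least 5 CPM and 31.0% of all genes tested. Control replicate 2 was the highest control for 17 of the 22 hosts. The median coefficient of variation was 13.0% in control and 2.63% in HSD52_OE libraries for ribosomal proteins, and 14.8% against 4.32% for hosts. Without control replicate 1 the ribosomal protein result was different: 36 of 82 genes were then lower and 9 higher, and their median was -0.16. In that fit 29.2% of protein-coding genes were lower and 19.2% higher, little changed from 30.1% and 21.4% with all libraries, while 11 hosts were higher and 3 lower. Protein-coding genes of at least 100 CPM were not counted apart in that fit. With all libraries, 41.3% of them were lower and 13.7% higher, with a median of -0.16. All 15 genes that were lower with 6 libraries were among the 36. Without control replicate 3 there were 15 higher and 13 lower and a median of 0.02, beside 22.3% and 32.4% of protein-coding genes. Without HSD52_OE replicate 2 there were 8 higher and 9 lower, beside 17.1% and 23.7%. With library totals in place of TMM, 15 were higher and 9 lower (protein-coding genes 29.5% and 21.2%) and the median was 0.07, a setting in which the median over all genes also moved, from 0.01 to 0.13. The sign of the set's median thus depended on the library and the scaling, whereas that of the hosts stayed between 0.29 and 0.46 in every fit run.

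**Figure D4:**
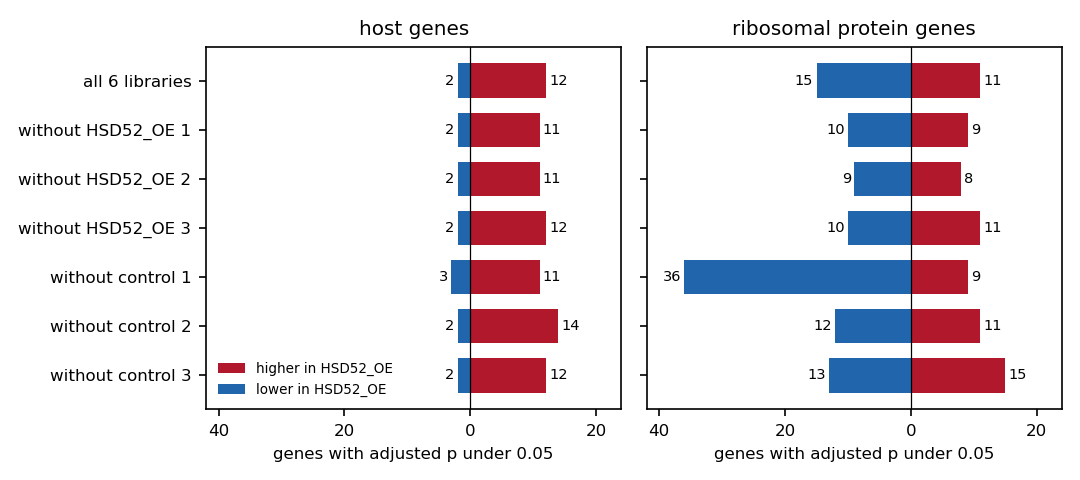
Number of genes with an adjusted p under 0.05 that were higher (red, right of 0) or lower (blue, left of 0) in HSD52_OE, with all 6 libraries and with each library left out in turn; left panel host genes, right panel ribosomal protein genes. Without control replicate 1, lower ribosomal protein genes number 36 against 15 with all libraries, while higher host genes stay between 11 and 14.

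Among ribosomal protein genes that fell, RPL28 of the large subunit and RPS15 and RPS3 of the small subunit had the largest changes. RPL28 was at 620, 804 and 707 CPM in control and at 482, 480 and 507 CPM in HSD52_OE libraries (-0.54 ± 0.10, adjusted p = 0.000477). RPS3, which sits at the mRNA entry of the small subunit, was at 2128, 2783 and 2569 CPM in control and at 1743, 1790 and 1779 CPM in HSD52_OE libraries (-0.49 ± 0.11, adjusted p = 0.00149). For both genes the lowest control, replicate 1, was above every HSD52_OE library. RPS15 was at 670, 863 and 836 CPM in control and at 557, 561 and 539 CPM in HSD52_OE libraries (-0.52 ± 0.10, adjusted p = 0.000726). Its 71 tested neighbours within 1 Mb had a median of -0.57, a fall of like size.

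RPL23A, a protein at the exit of the peptide tunnel, fell from 435 ± 52.2 to 313 ± 19.9 CPM (-0.48 ± 0.10, adjusted p = 0.00109), and its 43 tested neighbours had a median of -0.88. RPL5, which binds 5S ribosomal RNA and, with RPL11, the p53 regulator MDM2, fell from 917 ± 84.1 to 663 ± 18.7 CPM (-0.47 ± 0.10, adjusted p = 0.000848). RPL11, at 929 ± 97.9 CPM in control against 975 ± 31.5 CPM in HSD52_OE libraries, was not called (adjusted p = 0.572); the difference between the pair was not tested. RPL13 fell from 1813 ± 195 to 1317 ± 15.95 CPM and RPSA, also known as the laminin receptor, from 1739 ± 210 to 1279 ± 52.3 CPM. RPS28, RPL18, RPLP0, RPL8, RPL37A and RPL37 fell too, with log2 fold changes of -0.38 to -0.29; for RPL37A and RPL37 the groups overlapped. Without HSD52_OE replicate 2, none of these but RPS28 was called. Of the 15 alternative fits, RPL37 lost its call in 9, RPL37A in 8, RPL8 in 6, and RPL18 and RPLP0 in 4 each.

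**Figure D5:**
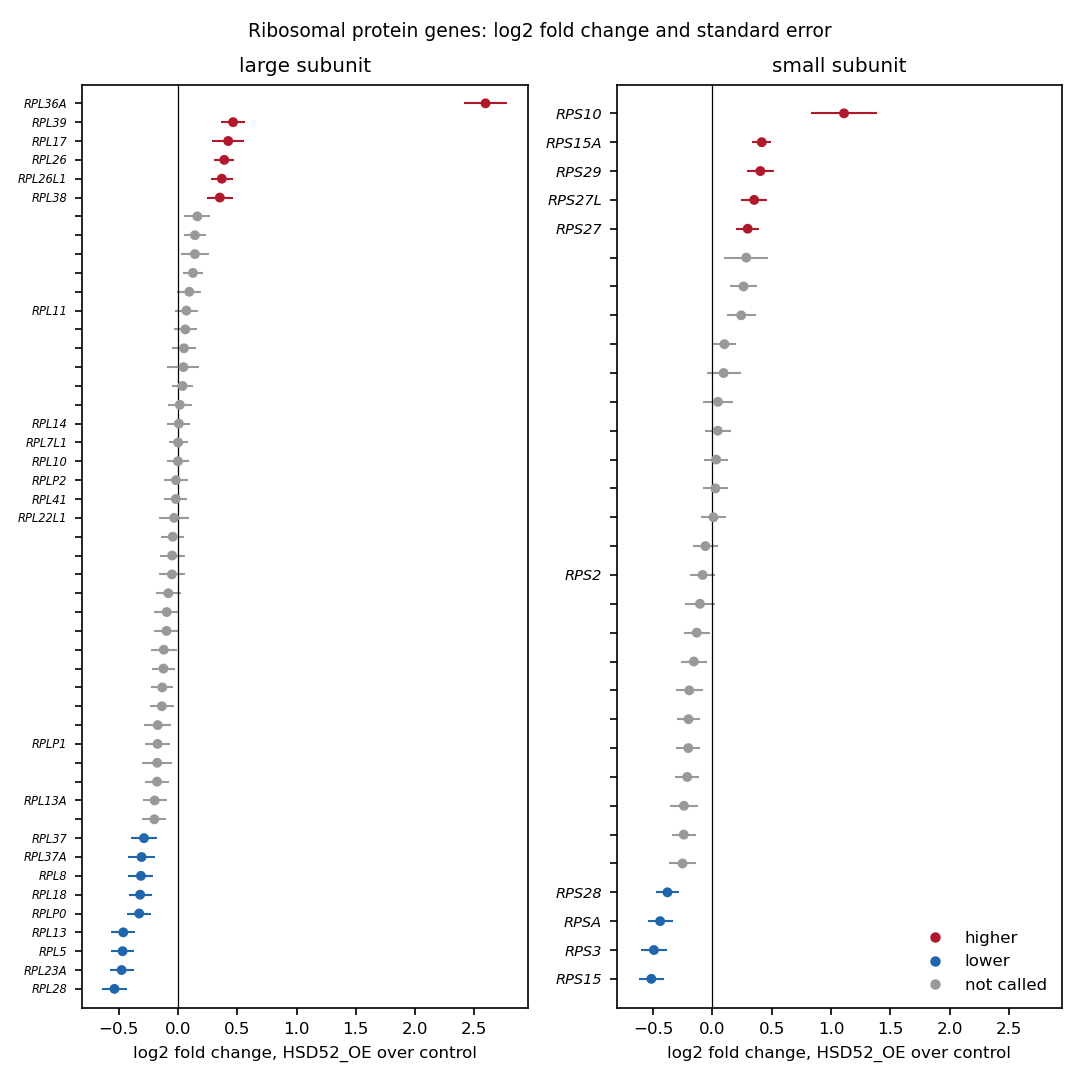
Log2 fold change of HSD52_OE over control (horizontal axis) for large-subunit (left) and small-subunit genes (right), ordered by value; genes past the threshold are drawn where the text names them, and the other names given are also those in the text; bars are standard errors, red genes were higher and blue genes lower at an adjusted p under 0.05, grey ones were not called. RPL36A at 2.59 and RPS10 at 1.11 stand apart, and all other genes drawn lie between -0.54 and 0.47.

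The largest rise in the set was in RPL36A. It had 45, 95 and 87 counts in control and 452, 558 and 485 in HSD52_OE libraries, or 4.29 ± 1.47 against 26.0 ± 2.63 CPM (2.59 ± 0.18, adjusted p = 5.25e-08). These are low values for a ribosomal protein gene. Exons of the readthrough gene RPL36A-HNRNPH2 cover 67.3% of its coding bases, and that gene had 0 to 3 counts per library. RPS10, of which 56.9% of coding bases lie in RPS10-NUDT3, had 18 to 21 counts in control and 34 to 53 in HSD52_OE libraries (1.11 ± 0.28, adjusted p = 0.00404), and RPS10-NUDT3 had 0 in all 6. RPL17, with 98.2% of coding bases in exons of other genes, was at 17.2 ± 3.82 and 23.0 ± 0.893 CPM, a call lost without control replicate 1 and without HSD52_OE replicate 1. How reads on shared exons were assigned is not given in the sources used here, so the rows of RPL36A, RPS10 and RPL17 are uncertain as measures of the mRNA.

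Such overlap was frequent among the genes that rose. Of 12 ribosomal protein genes with at least 10% of their coding bases in exons of another gene, a division made after the values were seen, 5 were higher (RPL36A, RPS15A, RPL26, RPS10 and RPL17) and 1 was lower (RPL23A). Of the other 69 tested, 6 were higher and 14 lower. RPS15A was at 97.6, 112 and 100 CPM in control and at 139, 139 and 136 CPM in HSD52_OE libraries (0.42 ± 0.08, adjusted p = 0.000647), with 36.9% of its coding bases shared. RPL26, a regulator of p53 mRNA translation besides its place in the ribosome, was at 58.1, 66.0 and 58.7 CPM in control and at 78.2, 78.6 and 82.8 CPM in HSD52_OE libraries (0.39 ± 0.08, adjusted p = 0.00129), with 60.7% shared. In neither gene did the groups overlap.

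The 6 that rose with under 10% of coding bases shared were RPL39, RPL26L1, RPS29, RPL38, RPS27L and RPS27. RPL39, a short protein lining the peptide tunnel, was at 345, 419 and 452 CPM in control and at 539, 565 and 574 CPM in HSD52_OE libraries (0.47 ± 0.10, adjusted p = 0.00151). RPS29, a zinc-binding protein of the small subunit, rose from 165 ± 28.0 to 218 ± 17.6 CPM, and RPL38, known for selective translation of Hox mRNAs in mouse, from 252 ± 42.7 to 321 ± 11.2 CPM. RPS27 rose from 706 ± 67.4 to 868 ± 58.1 CPM (0.30 ± 0.10, adjusted p = 0.0203). The call of RPL38 was lost without HSD52_OE replicate 2, and that of RPS27 without HSD52_OE replicate 1 or replicate 2. All 6 had groups without overlap. Over all genes tested, 29.6% had every HSD52_OE library above every control and 29.3% had every one below, against 13 and 15 of the 81 ribosomal protein genes. Protein-coding genes of at least 100 CPM had 17.0% above and 47.1% below.

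Paralogs of ribosomal proteins split. RPL26L1, the near copy of RPL26, was at 60.4, 64.9 and 76.9 CPM in control and at 85.8, 86.0 and 89.4 CPM in HSD52_OE libraries (0.37 ± 0.09, adjusted p = 0.00395). RPS27L, a p53 target and near copy of RPS27, was at 134, 153 and 194 CPM in control and at 204, 214 and 197 CPM in HSD52_OE libraries (0.35 ± 0.11, adjusted p = 0.0156), a call lost without control replicate 1 (adjusted p = 0.0816), without control replicate 2 (0.0654) and without HSD52_OE replicate 2 (0.0633). RPL22L1 (-0.03 ± 0.13) and RPL7L1 (0.00 ± 0.08) were not called. RPL3L, a striated-muscle paralog, had 6 to 19 counts per library, RPL39L 0 to 3, and RPL10L none in any library, which allows up to 0.175 CPM (3 counts in the smallest scaled library, for counting error only). These 3 were not tested. Ribosomal protein genes have many processed pseudogenes, so reads could be split among copies, and how such reads were counted is not given in the sources used here.

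Per kilobase of exon, RPL41, RPS2 and RPL13A were the highest ribosomal protein genes, at mean levels of 1267, 1086 and 830 FPKM, and none of them was called, though RPL13A was called lower in 3 alternative fits (without control replicate 1, with DESeq2 and with no low-count filter). RPL10, RPL7L1 and RPL14 had the log2 fold changes nearest to 0. Of the 74 genes with a mean of at least 100 CPM, 6 were higher and 15 lower (8.11% and 20.3%), beside 13.7% and 41.3% of protein-coding genes of that level. Of the 7 tested below it, 5 were higher and 0 lower (RPL36A, RPL26, RPL26L1, RPS10 and RPL17; edgeR, 5 at an unadjusted p under 0.05, all higher). All but RPL26L1 of these 5 share at least 10% of their coding bases with another gene, as given above. Of the 28 ribosomal protein genes that hold a snoRNA, 2 were higher and 7 lower, against 9 and 8 of the 53 tested that hold none. With a TOP tract at the start, 6 were higher and 7 lower of 47, and without one, 4 and 2 of 19. Genes with no RefSeq start are in neither of these groups, and all 81 tested held 11 higher and 15 lower. None of these divisions was tested.

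Genes that work on snoRNAs and ribosomes were counted from lists of known factors. Beside them, 21.4% of tested protein-coding genes were higher and 30.1% lower. For those of at least 100 CPM the shares were 13.7% and 41.3%. Of 17 tested snoRNP proteins, 2 were higher and 4 lower (11.8% and 23.5%). FBL, the methyltransferase of C/D particles, fell from 128 ± 12.1 to 96.6 ± 0.772 CPM (-0.40 ± 0.09, adjusted p = 0.00116), and the H/ACA particle proteins split, with NHP2 (0.36 ± 0.10) and GAR1 (0.27 ± 0.09) higher and NOP10 (-0.27 ± 0.09) lower. DKC1, the pseudouridine synthase of the same particle, was at 121 ± 11.3 and 110 ± 3.82 CPM (adjusted p = 0.206). Of 15 tested genes for RNA polymerase I and its factors, 4 were higher and 4 lower (26.7% and 26.7%). TTF1 (0.49 ± 0.09) had the smallest p among the higher and POLR1E (-0.42 ± 0.10) among the lower.

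Of 66 ribosome assembly factors, 15 were higher and 19 lower (22.7% and 28.8%, median -0.02), close to the shares of protein-coding genes. The smallest p was that of DDX47, a helicase of the small-subunit processome, with 9, 17 and 3 counts in control and 89, 101 and 66 in HSD52_OE libraries, or 0.553 ± 0.401 against 4.47 ± 0.992 CPM (adjusted p = 9.67e-06). Exons annotated to APOLD1 cover 100% of its coding bases, so its row is uncertain in the same way as that of RPL36A. LTV1, an export factor of the small subunit, rose from 18.4 ± 2.23 to 31.4 ± 0.493 CPM (0.77 ± 0.11, adjusted p = 2.87e-05), and IMP3, a protein of the U3 particle, fell from 44.8 ± 2.44 to 30.2 ± 2.91 CPM (-0.57 ± 0.10, adjusted p = 0.000193). Of 23 tested translation factors with TOP mRNAs, 2 were higher and 7 lower (8.70% and 30.4%, median -0.13). Among the lower, EEF2, which moves the ribosome along mRNA, fell from 2970 ± 127 to 2408 ± 40.3 CPM. TPT1 fell from 757 ± 131 to 578 ± 13.3 CPM. Of 24 mTORC1, LARP1 and S6 kinase genes, 2 were higher and 9 lower (8.33% and 37.5%, median -0.13). RPTOR, the scaffold of mTORC1, was at -0.63 ± 0.10 (adjusted p = 0.000116) and LARP1 at -0.30 ± 0.09 (adjusted p = 0.0113). DEPTOR, EIF4EBP1 and EIF4EBP2 were also among the 9 lower. The 2 higher were RRAGB (0.81 ± 0.14) and TIA1 (0.46 ± 0.09), and MTOR itself was not called (adjusted p = 0.111). The 4 ribosomal proteins that the naming rule leaves out were not called (edgeR), and 2 of them had an unadjusted p under 0.05.

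Nonsense-mediated decay, which removes several host transcripts, had 3 higher and 7 lower of 19 tested factors (15.8% and 36.8%, median -0.17). Among tested protein-coding genes the shares were 21.4% and 30.1%, and 13.7% and 41.3% among those of at least 100 CPM. UPF1, its central helicase, fell from 190 ± 28.3 to 103 ± 6.04 CPM (-0.88 ± 0.10, adjusted p = 6.52e-06), and EIF4A3, the core of the exon junction complex, from 188 ± 13.7 to 118 ± 2.65 CPM (-0.67 ± 0.08, adjusted p = 1.03e-05). MAGOHB, another junction protein, rose (0.77 ± 0.11), as did UPF3A (0.37 ± 0.09) and the kinase SMG1 (0.33 ± 0.08). The part of these levels in the host genes' values was not tested. Of 35 other snoRNA hosts, mostly protein-coding, 10 were higher and 9 lower (28.6% and 25.7%, median 0.07). The difference between them and the non-coding hosts was not tested. EIF4A1, a helicase of translation initiation, had the smallest p, with 50, 88 and 78 counts in control and 357, 398 and 347 in HSD52_OE libraries (2.23 ± 0.17, adjusted p = 8.62e-08). Of its coding bases, 86.8% lie in exons of other genes, among them the readthrough gene SENP3-EIF4A1, so this row too is uncertain as a measure of the mRNA. NFATC2IP (0.78 ± 0.08) and RABGGTB (0.76 ± 0.11) were higher, EIF4G1 (-0.60 ± 0.11) and HSPA8 (-0.50 ± 0.10) lower.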

How the data were processed

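Polyadenylated RNA of 6 LN229 libraries (3 control, 3 HSD52_OE) was sequenced. Per the labels' protocols, RNA was extracted with TRIzol, selected on poly-T beads and primed with random hexamers, and no step that keeps strand is described. The deposited values are raw read counts per gene with gene length in bases. Per the submitters' processing notes, CASAVA, HISAT2 2.0.5, featureCounts 1.5.0-p3 and the hg38 build were used. The annotation release is not given in the sources used here, but all 58735 gene IDs, coordinates and lengths equal those of GENCODE release 29. No row without a gene name was present, and 2 Y-linked rows were left out of the ribosomal protein set.

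Genes were filtered with filterByExpr (16322 of 32917 with a count remained), scaled by TMM and tested with edgeR 4.0.16's quasi-likelihood test (robust, 2-sided, R 4.3.3, limma 3.58.1) with group as the only term; p-values were adjusted by Benjamini-Hochberg over every gene in the fit, and 0.05 was the threshold. FPKM was computed from scaled CPM and gene length. Starts and their sequences came from RefSeq (GRCh38.p14), snoRNA sequences and exon overlaps from GENCODE. The overlaps were searched against all other genes except snoRNA rows. Neighbours are tested genes within 1 Mb. The steps recovered 86 of 100 genes changed 1.5-fold and 100 of 100 changed 2-fold when tested on simulated data, with 9 false calls among 195. The simulation gave every gene and both groups the same spread and changed few genes. In the real libraries the control group spread more than HSD52_OE and calls were common, so these rates do not carry over to them.

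The members and lists were chosen with earlier results of these data known. The genes named were HSD52, every host past the threshold with GAS5, ZFAS1, EPB41L4A-AS1 and SNHG1, the first 8 ribosomal protein genes by p on either side (not all are reported here), the 3 highest in FPKM and the 3 nearest to no change in each set, the paralogs, and, from each list, some of the first 4 by p on either side. Other genes were named after their values were seen. Alternatives were RLE factors, library totals, other low-count filters, limma-voom, DESeq2 1.42.0, leaving out 1 library at a time, the replicate number as a block, scaling without the members, and a test against a fold of 1.2.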

Additional observations from a re-analysis of the deposited data

How the results depend on the processing

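Over 15 alternative fits, host genes numbered 10 to 14 higher and 2 or 3 lower, and the 12 and 2 of the 6-library edgeR fit were within 1.5 times of each. Ribosomal protein genes were less stable. Library totals in place of TMM gave 9 lower, no low-count filter beyond 1 count gave 24 lower, and a test against a fold of 1.2 gave 4 higher and 8 lower, with 26 list members called in place of 92. With each library left out in turn, lower genes ranged from 9 (without HSD52_OE replicate 2) to 36 (without control replicate 1) and higher genes from 8 to 15. The leave-one-out range of the ribosomal protein share, HSD52_OE minus control, was -0.503 to 0.295 percentage points. The cause of these shifts was not tested. DESeq2 gave 11 hosts higher, and 11 ribosomal protein genes higher and 22 lower. A replicate block gave 13 and 2 hosts and 14 and 14 ribosomal protein genes. Same-numbered libraries deviated together with correlations of only 0.0307 to 0.0383, so the numbers were not taken to pair them. None of the 108 genes that the naming rule selects changed sign while called in any alternative, and of their 1619 alternative values 101 lost a call and 4 gained one (RPL13A in 3 fits, SNHG5 in 1). Over all 22 tested hosts, calls were lost 7 times (6 of them EPB41L4A-AS1) and gained 7 times higher (6 of them SNHG15) and 1 time lower. Over all 81 tested ribosomal protein genes, calls were lost 54 times in 14 genes and gained 14 times higher (7 genes) and 38 times lower (21 genes).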
